A study of Mus musculus with 12 samples.

Results

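This account describes how the transcripts of the gastrocnemius, a calf muscle made mostly of fast myofibers, differed between corticosterone-treated and vehicle-treated mice whose myofibers lacked the glucocorticoid receptor (GR). It rests on 2 libraries of the 12 in the series, 1 for each treatment, chosen by tissue, genotype and treatment label. The mice were male C57BL/6J animals with floxed alleles of *Nr3c1*, the GR gene, and a Cre transgene under the skeletal actin (*Acta1*) promoter (GR-mKO). Treatment began at 8 weeks of age and lasted 4 weeks, with drinking water that held 1% ethanol (vehicle) or 1% ethanol and 100 µg/mL of corticosterone (CORT), which is the chief adrenal glucocorticoid in mice. The GRfl/fl mice beside which they are set carried the same floxed alleles without Cre and drank the same solutions. Each library was a pool of RNA from 3 mice, and no group had a second library, so no value below has a replicate error and no p-value is given. The sources do not say whether the same animals gave the pools of different tissues. The Cre acts in myofibers and removes exon 3 of *Nr3c1*, which encodes part of the DNA-binding domain, so endothelial cells, fibroblasts, immune cells and adipocytes in the muscle, and the cells of every other organ, kept the receptor.

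As background, GR is a nuclear receptor that enters the nucleus when it binds a glucocorticoid and raises or lowers the transcription of its target genes. In muscle it is known for inducing genes of protein breakdown, such as the ubiquitin ligases *Fbxo32* and *Trim63*, and genes that turn fuel use from glucose to fat, such as *Pdk4*. In immune cells and fibroblasts glucocorticoids are known for restraining inflammation, antigen presentation and collagen synthesis. Circulating CORT also acts on muscle from outside, by changing insulin, lipids and other signals that reach the myofiber.

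The 2 GR-mKO libraries held 20073256 (vehicle) and 20357253 (CORT) expected counts and the GRfl/fl libraries 19833928 and 19394572, which puts the floor of 3 counts at 0.147 to 0.155 counts-per-million (CPM). Of 22273 genes, 13543 were above 0 in all 4 gastrocnemius libraries and were compared. A gene was counted as higher or lower, and is written below as having risen or fallen, where its log2 change, with 0.5 CPM added to both sides, reached 1 in size (2-fold). Intervals after a log2 change are 95% exact counting intervals of the ratio without that addition, and cover counting error only. By this rule 205 genes (1.51%) were higher and 680 (5.02%) lower with CORT in GR-mKO gastrocnemius, 885 in all (6.53%). In GRfl/fl gastrocnemius 441 (3.26%) were higher and 639 (4.72%) lower, 1080 in all (7.97%). The median log2 change of all compared genes was -0.10 in GR-mKO and -0.08 in GRfl/fl muscle. TMM factors moved the GR-mKO median to 0.04 and the split to 265 higher and 494 lower, and median-of-ratios factors gave 0.03, with 258 higher and 499 lower, so the higher genes made up 23.2%, 34.9% and 34.1% of those counted under the respective scalings.

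The libraries carried the labelled tissue, and *Nr3c1* was lower in the GR-mKO than in the GRfl/fl libraries. *Acta1*, the skeletal actin gene, stood at 32605 CPM under vehicle and 38416 CPM under CORT in GR-mKO muscle. *Nr3c1* stood at 46.4 CPM under vehicle and 35.5 CPM under CORT in GR-mKO muscle, beside 113 and 90.4 CPM in GRfl/fl muscle. Transcripts that lack a single exon are still counted, so these levels do not measure functional receptor. The GR-mKO libraries also carried liver transcripts. Over 202 genes abundant in liver and scarce in GRfl/fl gastrocnemius, the median gene stood at 0.0849% of its liver level in the vehicle library and at 0.279% in the CORT library, against 0.00994% and 0.00934% in the GRfl/fl libraries, whose low values the choice of genes partly set. Of those genes, 179 were higher in the CORT than in the vehicle library of GR-mKO mice and 92 in GRfl/fl mice. How these transcripts came to be in the libraries was not tested. Of the 205 higher genes, 63 (30.7%) were at least 10 times more abundant in GR-mKO liver than in the muscle, against 3.77% of all compared genes, and 42 (20.5%) were so in gonadal white adipose tissue (WAT), against 3.72%.

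The clearest change in GR-mKO gastrocnemius was in antigen presentation by MHC class II, the surface proteins that show peptides to helper T cells and that macrophages, dendritic cells and B cells make. Of 8 compared genes of this group, 7 fell and none rose, with a median log2 change of -2.92, and the summed level of all 12 listed members went from 611 to 65.6 CPM. In GRfl/fl muscle 6 of the 8 fell, with a median of -3.36 and sums of 224 and 19 CPM. The upstream sequences of *H2-Aa* and *H2-Eb1* are shown because class II promoters share a short conserved module, of which the Y box is the site of the factor NF-Y. They are the 250 bases before the start of the gene in RefSeq on GRCm38.p6, at chr17:34287824-34288073 on the minus strand for *H2-Aa* and chr17:34305617-34305866 on the plus strand for *H2-Eb1*. Capitals mark the match to the Y box letters CTNATTGG, searched on both strands.
H2-Aa: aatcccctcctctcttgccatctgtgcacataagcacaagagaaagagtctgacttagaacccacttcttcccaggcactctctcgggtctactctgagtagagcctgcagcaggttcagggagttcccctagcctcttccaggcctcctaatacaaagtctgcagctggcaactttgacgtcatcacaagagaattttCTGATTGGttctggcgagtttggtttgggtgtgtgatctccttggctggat
H2-Eb1: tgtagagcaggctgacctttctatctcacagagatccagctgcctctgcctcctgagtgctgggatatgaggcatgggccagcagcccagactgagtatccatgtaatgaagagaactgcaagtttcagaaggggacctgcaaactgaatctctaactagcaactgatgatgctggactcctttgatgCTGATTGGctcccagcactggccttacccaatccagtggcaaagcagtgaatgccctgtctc

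The match began 51 bases before the start of *H2-Aa* and 62 bases before that of *H2-Eb1*. The RefSeq start of *H2-Eb1* is the first base of the gene, and the transcript counted here begins 150 bases further in. Positions given in parentheses below, after a transcript identifier, span the whole gene and not that transcript. In *H2-Aa* it overlaps by 1 base a match to GAANNTTC that begins at 58. The same letters were found in 2156 of 32851 windows of this length (6.56%), so a match alone does not set a class II gene apart. *H2-DMa* and *H2-DMb1* had no match to these letters in their windows.

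*H2-Ab1* (ENSMUST00000040828, chromosome 17, 34257689 to 34269419) and *H2-Aa* (ENSMUST00000040655, chromosome 17, 34282744 to 34287823) encode the chains of the I-A molecule. *H2-Ab1* stood at 102 CPM under vehicle and 7.56 CPM under CORT in GR-mKO muscle, and at 37.0 and 1.14 CPM in GRfl/fl muscle, and fell by 3.67 on the log2 scale in GR-mKO mice (-4.00 to -3.51). *H2-Aa* stood at 122 and 10.2 CPM in GR-mKO and at 37.2 and 1.81 CPM in GRfl/fl muscle, with a GR-mKO log2 change of -3.52 (-3.79 to -3.38). Both were highest in the GR-mKO vehicle library, and the GR-mKO CORT library stayed above the GRfl/fl CORT library. *Cd74* (ENSMUST00000050487, chromosome 18, 60803848 to 60812652), the invariant chain that guides class II molecules to the endosome, stood at 241 and 22.5 CPM in GR-mKO and at 105 and 4.85 CPM in GRfl/fl muscle, a GR-mKO log2 change of -3.39 (-3.56 to -3.28). *H2-Eb1* (ENSMUST00000074557, chromosome 17, 34305867 to 34316674), the beta chain of I-E, stood at 73.9 and 6.68 CPM in GR-mKO and at 26.9 and 0.774 CPM in GRfl/fl muscle, a GR-mKO log2 change of -3.37 (-3.73 to -3.21). All 4 of these genes followed the same order of libraries. *H2-DMa* and *H2-DMb1*, which encode the molecule that loads peptides onto class II, went from 11 to 2.21 CPM and from 13.3 to 1.99 CPM in GR-mKO muscle. *Ctss*, the protease that trims the invariant chain, was the member that differed between genotypes, with 42.0 and 13.3 CPM in GR-mKO muscle, a fall of 1.63 on the log2 scale, and 5.29 and 7.45 CPM in GRfl/fl muscle. *H2-DMb2* did not reach the fold, at 2.42 and 1.04 CPM. *Ciita*, the coactivator that switches class II genes on, was not compared because it was at 0 in a GRfl/fl library. It stood at 2.46 CPM in the GR-mKO vehicle library and at 0.148 CPM, close to the floor, in the CORT library. *H2-Oa* and *H2-Ob* were listed at 0.401 and 0.851 CPM under vehicle and at 0 under CORT, and *H2-Eb2* at 0 in all 4 libraries.

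The same genes were lower with CORT in the other organs of GR-mKO mice. In gonadal WAT *H2-Ab1* stood at 362 CPM under vehicle and 63.4 CPM under CORT and *Cd74* at 767 and 163 CPM. In liver *H2-Ab1* stood at 23.3 and 4.19 CPM and *Cd74* at 49.8 and 8.55 CPM. *Ctss* differed in WAT, where it stood at 80.1 CPM under vehicle and 132 CPM under CORT.

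Macrophage and dendritic cell markers fell as well in GR-mKO muscle, but from a vehicle library that stood above the other 3. Of 21 compared, 16 fell and none rose, with a median log2 change of -1.27. Their summed level was 686 CPM in the GR-mKO vehicle library and 274 CPM in the CORT library, beside 239 and 230 CPM in GRfl/fl muscle, where 4 of the 21 fell and the median change was -0.27. The GRfl/fl sums were nearly equal, but abundant genes such as *Lyz2* carry them, and the 4 that fell in GRfl/fl muscle were *Itgax*, *Cd209a*, *Cd209d* and *Clec9a*, most of them markers of dendritic cells. *Itgax* stood at 1.31 and 0.206 CPM and *Cd209a* at 1.92 and 0.103 CPM in GRfl/fl muscle, and *Ccr2* was listed at 3.81 CPM and 0. The *Cd209a* level under CORT lies below the floor. *Ighm*, the immunoglobulin heavy chain of B cells, stood at 61.7 and 12.6 CPM in GRfl/fl muscle. *Itgax*, *Cd209a*, *Ccr2* and *Ighm* were lower under CORT in both genotypes. Other markers stood higher under CORT in GRfl/fl muscle, among them *Xcr1* at 1.91 and 2.5 CPM, *Csf1r* at 13.2 and 19.1 CPM and *Adgre1* at 3.52 and 4.58 CPM. What part cells that carry class II molecules had in the class II change was not tested. In these bulk libraries fewer cells of a type and less RNA per cell cannot be told apart.

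*Lyz2*, the lysozyme of macrophages and granulocytes (ENSMUST00000092163, chromosome 10, 117277331 to 117282321), stood at 264 and 109 CPM in GR-mKO muscle and at 66.2 and 67.8 CPM in GRfl/fl muscle. *Csf1r*, the receptor on which macrophages depend, stood at 49.7 and 11.4 CPM in GR-mKO and at 13.2 and 19.1 CPM in GRfl/fl muscle. For both genes the GR-mKO vehicle library stood alone at the top, and the GR-mKO CORT library lay closer to the GRfl/fl libraries. *Adgre1*, which encodes the F4/80 antigen, fell from 10.6 to 2.80 CPM in GR-mKO muscle and stood at 3.52 and 4.58 CPM in GRfl/fl muscle. *Mpeg1*, a pore-forming protein of macrophages, fell from 38.4 to 6.89 CPM, and *Cd209a*, a lectin of dendritic cells, from 4.59 to 0.442 CPM. Among markers of resident tissue macrophages *Mrc1* fell from 33.3 to 12.9 CPM and *Cd209d* from 4.27 to 1.32 CPM, and *Folr2* stood at 13.4 and 7.06 CPM. *Cd163*, at 8.53 and 8.70 CPM, and *Lyve1*, at 19.2 and 20.4 CPM in GR-mKO muscle, were the only 2 of the 21 above 0. *Itgam* and *Ccr2*, the latter a receptor of monocytes recruited from blood, were listed at 9.36 and 8.86 CPM in the vehicle library and at 0 in the CORT library, and were not compared. *Tyrobp*, an adaptor of myeloid receptors, fell by 3.01 on the log2 scale, from 11.6 to 1.00 CPM, and stood at 1.04 and 3.33 CPM in GRfl/fl muscle.

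MHC class I presentation, which nearly all cells use, changed less. Of 14 compared genes 5 fell (*H2-Q4*, *H2-Q6*, *H2-T23*, *Tap1* and *Psmb9*), none rose, and all 14 were below 0, with a median log2 change of -0.90 (-0.53 in GRfl/fl muscle). *B2m*, the light chain of class I, stood at 252 and 139 CPM in GR-mKO muscle and 160 and 152 CPM in GRfl/fl muscle. The H2-Q genes are close copies of each other, so reads could be divided between them. Of 25 interferon-stimulated genes *Iigp1* and *Cxcl9* fell, beside 5.02% of all compared genes. Of 7 compared T and B lymphocyte markers *Cd2* and *Ighm* fell, the latter from 140 to 59.5 CPM, and of 7 neutrophil and mast cell markers *Mcpt4* and *Mmp9* fell.

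**Figure D1:**
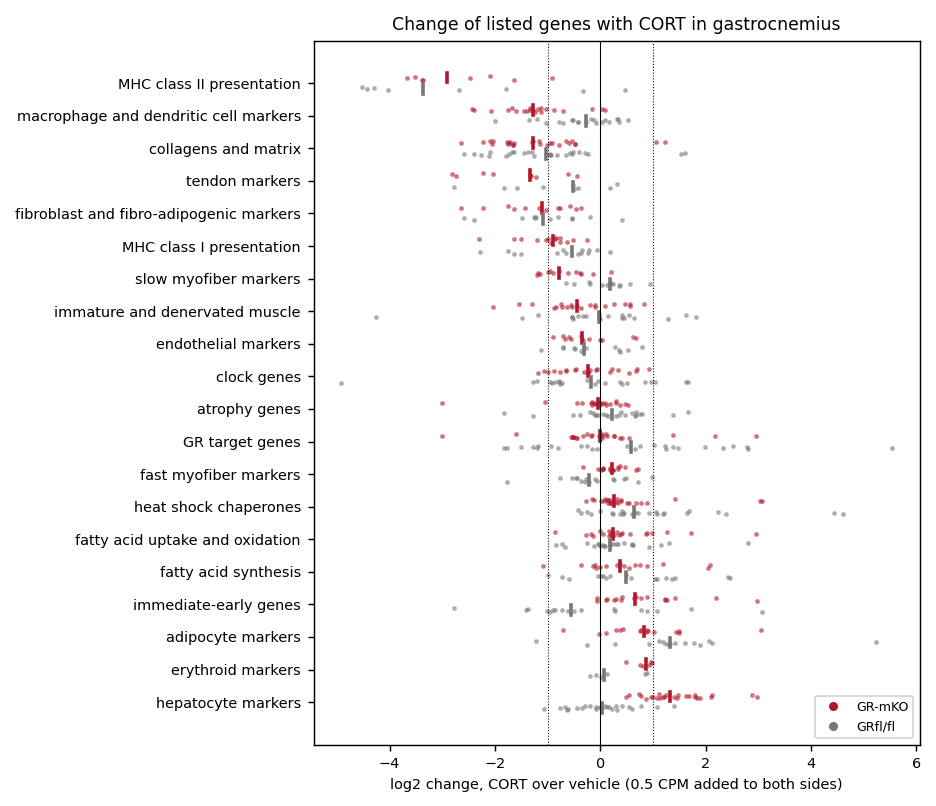
Each point is the log2 change of a compared gene, CORT over vehicle, in GR-mKO (red) or GRfl/fl (grey) gastrocnemius for 20 of the gene lists, with the list's median as a vertical bar and dotted lines at the 2-fold limits. The class II median lay at -2.92 in GR-mKO and -3.36 in GRfl/fl muscle. The macrophage and tendon medians lay further below 0 in GR-mKO than in GRfl/fl muscle. The slow fiber median lay at -0.78 in GR-mKO and at 0.18 in GRfl/fl muscle.

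The extracellular matrix formed the other large group of falling genes. Of 27 compared collagens and matrix genes 17 fell and 2 rose in GR-mKO muscle, with a median log2 change of -1.28, and 14 of the 17 also fell in GRfl/fl muscle, where the median was -1.03. The summed level went from 5485 to 2225 CPM in GR-mKO and from 4158 to 1927 CPM in GRfl/fl muscle. *Col3a1* (ENSMUST00000087883, chromosome 1, 45311538 to 45349706), the chain of fibrillar type III collagen, stood at 521.7 and 82.5 CPM in GR-mKO and at 381 and 63.0 CPM in GRfl/fl muscle, with log2 changes of -2.65 (-2.74 to -2.59) and -2.59. *Col1a1*, of type I collagen, stood at 491 and 104 CPM in GR-mKO and at 399 and 75.1 CPM in GRfl/fl muscle. *Col3a1* and *Col1a1* thus fell in both genotypes. *Col6a1* went from 186 to 58.7 CPM and *Fn1*, fibronectin, from 125 to 29.8 CPM in GR-mKO muscle. The collagens of the basement membrane did not reach the fold: *Col4a1* stood at 280 and 192 CPM in GR-mKO and at 330 and 229 CPM in GRfl/fl muscle. *Lox*, which cross-links collagen, and *Thbs1*, a matrix protein that activates TGF-beta, rose in both genotypes, *Lox* from 19.7 to 41.3 CPM and *Thbs1* from 19.9 to 47.2 CPM in GR-mKO muscle. *Col3a1* did not follow the muscle in gonadal WAT, where it stood at 757 CPM under vehicle and 1159 CPM under CORT.

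Markers of the cells that make this matrix moved with it. Of 12 fibroblast and fibro-adipogenic markers 7 fell, with a median of -1.10 (-1.09 in GRfl/fl muscle). *Pi16* went from 108 to 34.4 CPM, while *Pdgfra*, the receptor that defines these cells, did not reach the fold, at 48.5 and 32.5 CPM in GR-mKO and 46.9 and 32.4 CPM in GRfl/fl muscle. *Col1a1*, *Col3a1*, *Dcn* and *Lum* are on both the matrix and the fibroblast list. Of 9 compared tendon markers 7 fell, with a median of -1.33 (-0.52 in GRfl/fl muscle, where 4 fell), and all 9 were highest in the GR-mKO vehicle library. *Tnmd*, tenomodulin, stood at 12.1 and 2.55 CPM in GR-mKO and at 5.35 and 1.44 CPM in GRfl/fl muscle, and *Fmod*, fibromodulin, at 250 and 99.3 CPM and at 118 and 82.8 CPM. How much tendon each pool held was not measured, and its part in these changes was not tested. None of 12 endothelial markers passed the fold (median -0.35), nor did any of 8 satellite cell markers (median -0.29) or 9 Schwann cell markers (median -0.14).

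**Figure D2:**
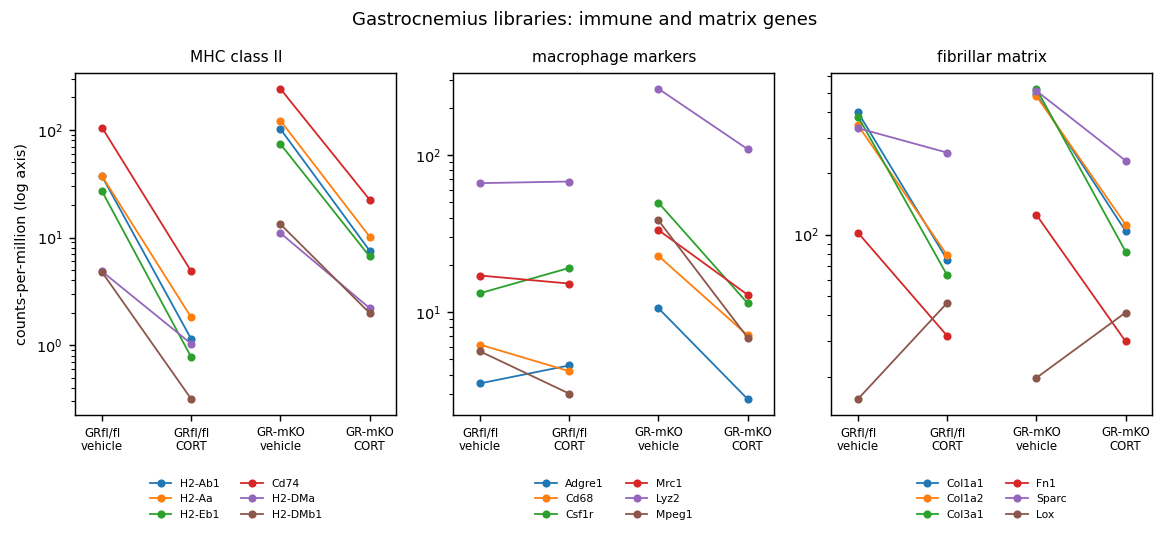
Levels in CPM on a log axis of 6 MHC class II genes, 6 macrophage markers and 6 matrix genes in the 4 gastrocnemius libraries, each point 1 library and lines joining vehicle and CORT of a genotype. Class II and fibrillar collagen lines fall in both genotypes, whereas macrophage lines such as *Csf1r* fall steeply from a high GR-mKO vehicle library alone.

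The vehicle library of GR-mKO mice was the highest of the 4 for 560 of the 680 genes that fell (82.4%). The same library was highest for 36.1% of all compared genes, and since a falling gene must be higher under vehicle than under CORT in GR-mKO muscle, part of that share comes from how the genes were counted. Over all compared members of a list, whether they fell or not, this library was highest for 8 of 8 class II genes, 16 of 21 macrophage markers, 11 of 12 fibroblast markers, 9 of 9 tendon markers and 10 of 13 slow myofiber markers. With 1 pool per group, the treatment and the composition of that pool cannot be told apart for these genes.

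Myofiber genes themselves changed little, with a difference between slow and fast fibers. Of 13 slow myofiber markers 3 fell (*Myh7*, *Tnnc1* and *Tpm3*), and 12 of the 13 were below 0, with a median log2 change of -0.78, against 0.18 in GRfl/fl muscle. *Myh7* (ENSMUST00000102803, chromosome 14, 54970684 to 54994626), the myosin heavy chain of slow fibers, stood at 393 and 178 CPM in GR-mKO and at 180 and 204 CPM in GRfl/fl muscle, a GR-mKO log2 change of -1.14 (-1.20 to -1.09) that TMM factors brought to -0.99. *Tnnc1*, slow troponin C, stood at 178 and 78.1 CPM in GR-mKO and 38.3 and 44.5 CPM in GRfl/fl muscle. For *Myh7* the 3 other libraries were alike, and for *Tnnc1* both GR-mKO libraries lay above both GRfl/fl libraries. None of 17 fast myofiber markers passed the fold, and their median was 0.22 (-0.21 in GRfl/fl muscle). *Myh4*, the myosin of fast IIb fibers, stood at 15392 and 25114 CPM in GR-mKO and at 35764 and 30831 CPM in GRfl/fl muscle.

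Genes of immature or denervated muscle had a median change of -0.44, with 3 of 21 lower (*Myh8*, *Tnnt2* and *Chrng*). *Myh8*, the perinatal myosin, went from 4.95 to 1.38 CPM, and *Chrng*, the fetal acetylcholine receptor subunit, from 2.31 to 0.639 CPM. *Myh3*, the embryonic myosin, was not compared and was listed at 8.58 CPM and 0 in GR-mKO and at 0 and 5.11 CPM in GRfl/fl muscle. *Actc1*, the cardiac actin of developing muscle, stood at 1312 and 1141 CPM in GR-mKO muscle and at 501 and 25.6 CPM in GRfl/fl muscle, so the large difference between treatments was in the GRfl/fl libraries.

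Direct GR targets were examined next, since myofibers without the receptor should not answer to CORT through it. Of 26 genes, 3 rose (*Pdk4*, *Angptl4* and *Lcn2*) and 2 fell (*Ddit4* and *Bcl6*) in GR-mKO muscle, with a median log2 change of 0.00. *Lcn2* stood at 1.14 and 3.74 CPM in GR-mKO muscle. In gonadal WAT of GR-mKO mice *Angptl4* stood higher, at 386 and 549 CPM, as did *Lcn2*, at 5.21 and 42.7 CPM. In GRfl/fl muscle 11 rose and 6 fell, with a median of 0.59. *Fkbp5*, a cochaperone of GR and a standard readout of its activity (ENSMUST00000079413, chromosome 17, 28399094 to 28517527), stood at 30.0 and 20.8 CPM in GR-mKO muscle, a log2 change of -0.52, and at 61.9 and 355 CPM in GRfl/fl muscle, a change of 2.51. *Pik3r1*, a regulatory subunit of phosphoinositide 3-kinase, stood at 32.5 and 21.9 CPM in GR-mKO and at 31.9 and 223 CPM in GRfl/fl muscle. *Cdkn1a*, a cell cycle inhibitor, stood at 37.5 and 44.6 CPM and at 37.3 and 188 CPM. For these 3 genes the GRfl/fl CORT library stood alone above the other 3. *Tsc22d3*, which encodes the anti-inflammatory protein GILZ, stood at 258 and 182 CPM in GR-mKO and at 276 and 157 CPM in GRfl/fl muscle and reached the fold in neither. *Bcl6*, a repressor of transcription, fell from 166 to 54.2 CPM in GR-mKO muscle and stood at 126 and 105 CPM in GRfl/fl muscle. *Per1* and *Sgk1*, which GR also induces, stood at 19.7 and 29.2 CPM and at 211 and 217 CPM in GR-mKO muscle, and were lower under CORT in GRfl/fl muscle, at 80.6 and 33.1 CPM and at 260 and 75.2 CPM.

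The genes of muscle atrophy held few changed members in either genotype. Of 24, none rose and 2 fell (*Ddit4* and *Fbxo21*) in GR-mKO muscle, with a median of -0.04. Of all compared genes 1.51% rose and 5.02% fell. In GRfl/fl muscle 2 of the 24 rose and the same 2 fell, with a median of 0.22. *Fbxo32*, the ubiquitin ligase atrogin-1, stood at 316 and 359 CPM in GR-mKO and 287 and 913 CPM in GRfl/fl muscle, with log2 changes of 0.18 and 1.67. *Trim63*, the ligase MuRF1, stood at 163 and 211 CPM and at 244 and 425 CPM, with changes of 0.37 and 0.80. *Foxo3*, a transcription factor that drives both ligases, stood at 36.4 and 32.4 CPM and at 49.3 and 78.3 CPM. In all 3 the CORT library of GRfl/fl mice was the highest of the 4. *Ddit4* (ENSMUST00000020308, chromosome 10, 59949669 to 59951834), an inhibitor of mTORC1 that glucocorticoids are known to induce, went the other way in both genotypes, from 41.2 to 4.72 CPM in GR-mKO and from 27.8 to 7.52 CPM in GRfl/fl muscle, log2 changes of -3.00 (-3.45 to -2.82) and -1.82. The remaining receptor of corticosterone, the mineralocorticoid receptor *Nr3c2*, stood at 13.3 and 10.2 CPM in GR-mKO muscle, and none of the 5 compared genes of the receptors and of CORT metabolism passed the fold. *Hsd11b1*, the enzyme that regenerates corticosterone inside cells, stood at 16.6 and 10.1 CPM.

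Several genes of fuel use rose without the myofiber receptor. *Pdk4* (ENSMUST00000019721, chromosome 6, 5483351 to 5496309), the kinase that shuts off pyruvate dehydrogenase and so spares glucose, stood at 214 and 970 CPM in GR-mKO and at 406 and 967 CPM in GRfl/fl muscle, log2 changes of 2.18 (2.13 to 2.23) and 1.25. The CORT libraries were alike and the GR-mKO vehicle library was the lowest. *Angptl4* (ENSMUST00000173869, chromosome 17, 33773750 to 33781830), a secreted inhibitor of lipoprotein lipase, stood at 1.64 and 16.1 CPM in GR-mKO and 2.06 and 17.3 CPM in GRfl/fl muscle, log2 changes of 2.95 and 2.80. The 24 genes of fatty acid uptake and oxidation had a median of 0.24 and none fell, and *Plin5*, which ties lipid droplets to mitochondria, was among those that rose. *Plin5* stood at 4.68 and 12 CPM in GR-mKO and at 9.15 and 9.06 CPM in GRfl/fl muscle. Of 17 genes of fatty acid synthesis, *Fasn*, *Acaca* and *Scd1* rose and *Mlxipl* fell, with a median of 0.37. *Scd1* (ENSMUST00000041331, chromosome 19, 44394455 to 44407879), a fatty acid desaturase, stood at 229 and 977 CPM in GR-mKO and at 181 and 967 CPM in GRfl/fl muscle, and *Fasn*, fatty acid synthase, at 31.0 and 130 CPM and at 31.5 and 177 CPM. The genotypes were thus nearly alike in both treatments for *Angptl4*, *Scd1* and *Fasn*. Of 23 genes of insulin signalling and glucose use *Pdk4* rose and *Igf1* fell, *Igf1* from 32.7 to 15.8 CPM.

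Adipocyte markers moved with these lipid genes. Of 16 compared, 5 rose (*Lep*, *Adipoq*, *Plin1*, *Retn* and *Acvr1c*) and none fell, with a median of 0.82 (1.32 in GRfl/fl muscle, where 12 rose and 1 fell), and the summed level was 516.8 and 793 CPM in GR-mKO and 458 and 1121 CPM in GRfl/fl muscle. *Lep* (ENSMUST00000069789, chromosome 6, 29060220 to 29073877), the hormone leptin, stood at 3.35 and 31.4 CPM in GR-mKO and at 2.01 and 93.6 CPM in GRfl/fl muscle, and at 1290 and 3196 CPM in gonadal WAT of GR-mKO mice. *Adipoq*, adiponectin, stood at 16.8 and 48.2 CPM in GR-mKO muscle and at 4341 and 2648 CPM in that WAT. Not every marker followed: *Fabp4*, which endothelial cells also express, stood at 249 and 267 CPM, *Pparg* at 3.89 and 3.83 CPM, and *Cfd* at 48.8 and 29.6 CPM in GR-mKO muscle. *Cidec* was listed at 0 in the vehicle library and at 49.3 CPM in the CORT library and was not compared. *Scd1*, *Fasn* and *Angptl4* are abundant in WAT as well, at 25997 and 34014 CPM, at 2111 and 3698 CPM and at 386 and 549 CPM. The levels of these genes in muscle fibers and in fat between fibers cannot be told apart here. A share of fat transcripts like that for liver could not be given, since only 1 gene was abundant in WAT and scarce enough in GRfl/fl gastrocnemius.

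**Figure D3:**
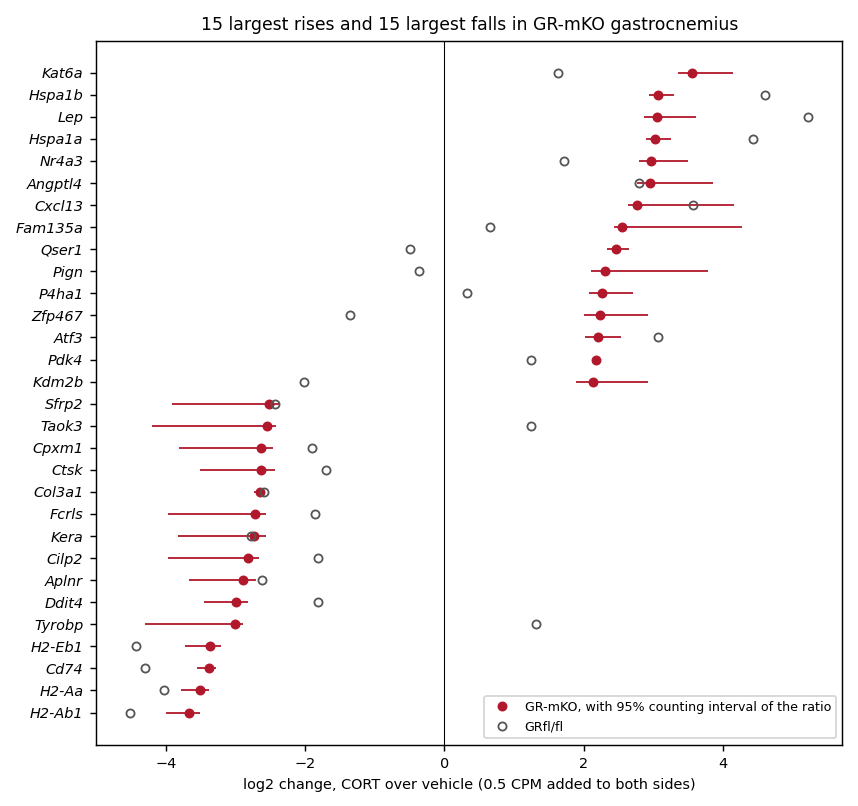
Log2 changes with CORT of the 15 genes that rose most and the 15 that fell most in GR-mKO gastrocnemius (filled points, with 95% counting intervals of the ratio) and of the same genes in GRfl/fl gastrocnemius (open points). Class II genes and *Col3a1* lie far below 0 in both genotypes, whereas *Zfp467*, *Kdm2b*, *Tyrobp* and *Taok3* lie on opposite sides of 0.

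Heat shock genes rose in part. Of 26 chaperone genes *Hspa1a*, *Hspa1b* and *Dnajb1* rose and none fell, 23 were above 0, and the median was 0.26. In GRfl/fl muscle 10 rose, with a median of 0.64. *Hspa1a* (ENSMUST00000087328, chromosome 17, 34969190 to 34972156) and *Hspa1b* (ENSMUST00000172753, chromosome 17, 34956436 to 34959238) encode the inducible HSP70 and are neighbouring copies. *Hspa1a* stood at 15 and 126 CPM in GR-mKO and at 33.4 and 733 CPM in GRfl/fl muscle, log2 changes of 3.03 (2.90 to 3.25) and 4.44. *Hspa1b* stood at 13.7 and 119 CPM and at 29.5 and 733 CPM, log2 changes of 3.07 (2.94 to 3.3) and 4.61. Both copies rose in both genotypes, and the GR-mKO CORT level lay well below that of GRfl/fl mice. *Dnajb1*, the cochaperone of HSP70, stood at 18.5 and 50.3 CPM and at 14.0 and 75.6 CPM. *Hsp90aa1*, the inducible HSP90, fell short of the fold in GR-mKO muscle, at 59.6 and 111 CPM, and stood at 53.7 and 256 CPM in GRfl/fl muscle.

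The upstream sequence of *Hspa1a* is shown because the copies share it: the 250 bases before the 2 starts were identical at 247 positions (98.8%). It lies at chr17:34972157-34972406 on the minus strand (RefSeq, GRCm38.p6), and capitals mark the match to GAANNTTC, which pairs the units of a heat shock element head to head.
Hspa1a: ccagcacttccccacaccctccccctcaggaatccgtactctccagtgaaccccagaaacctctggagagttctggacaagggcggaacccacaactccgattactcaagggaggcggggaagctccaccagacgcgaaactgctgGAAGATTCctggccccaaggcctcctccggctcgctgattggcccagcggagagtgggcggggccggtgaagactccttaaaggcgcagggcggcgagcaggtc

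The match began 104 bases before the start in both copies, and a match to CTNATTGG, which does not overlap it, began at 70. GAANNTTC was found in 2199 of 32851 windows (6.69%), TTCNNGAA, the tail-to-tail form, in 2354 (7.17%), and neither in the windows of *Dnajb1*. Of the 100-base stretches of the *Hspa1a* transcript, 47.1% also occur in *Hspa1b*, so the division of reads between the copies is uncertain and their changes are not separate observations.

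Immediate-early genes, which cells switch on within minutes of a stimulus, were the group whose median lay furthest above 0 apart from blood, fat and liver markers. Of 18 compared, 6 rose in GR-mKO muscle (*Nr4a1*, *Nr4a3*, *Atf3*, *Fosb*, *Egr3* and *Maff*) and none fell, with a median of 0.65. In GRfl/fl muscle 3 rose and 4 fell, with a median of -0.55. *Nr4a3* (ENSMUST00000030025, chromosome 4, 48045153 to 48086447), an orphan nuclear receptor that exercise induces in muscle, stood at 3.75 and 32.9 CPM in GR-mKO and at 14.6 and 49.3 CPM in GRfl/fl muscle, log2 changes of 2.97 (2.79 to 3.5) and 1.72. *Nr4a1*, of the same family, stood at 169 and 405 CPM in GR-mKO and at 418 and 274 CPM in GRfl/fl muscle. *Fosb*, a subunit of AP-1, stood at 14.4 and 39.0 CPM and at 32.9 and 4.41 CPM. *Atf3*, a factor of the stress response, rose in both genotypes, from 7.64 to 36.9 CPM in GR-mKO and from 13.4 to 116 CPM in GRfl/fl muscle. Of the 6 that rose, *Atf3*, *Nr4a3* and *Maff* were higher in both CORT libraries than in both vehicle libraries, and *Nr4a1*, *Fosb* and *Egr3* were not. All 6 were taken because they were higher in the GR-mKO CORT library. The share of all compared genes with that order was not counted.

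**Figure D4:**
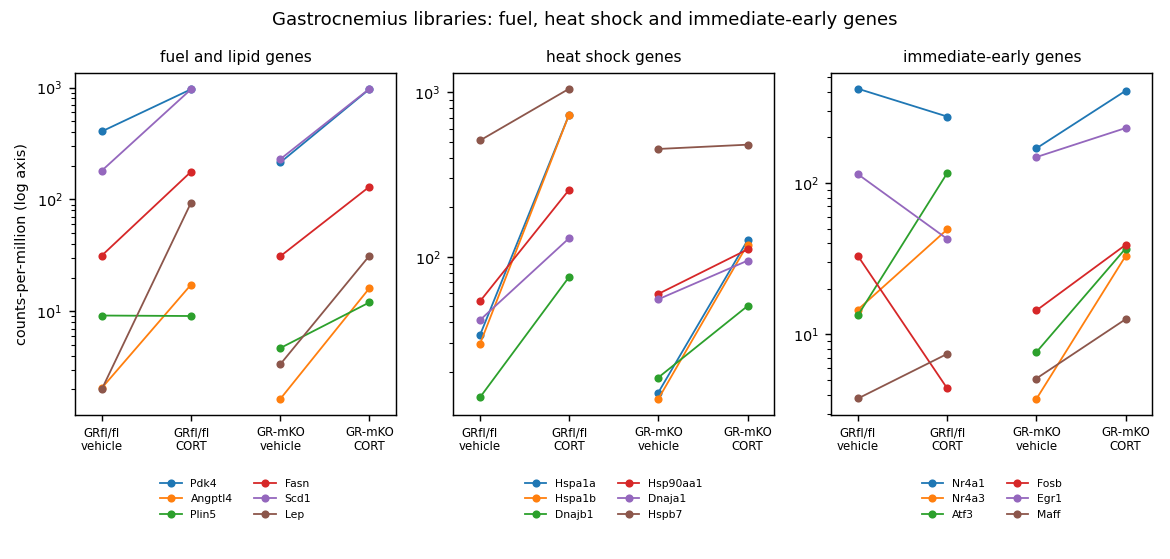
Levels in CPM on a log axis of 6 fuel and lipid genes, 6 heat shock genes and 6 immediate-early genes in the 4 gastrocnemius libraries, each point 1 library and lines joining vehicle and CORT of a genotype. *Pdk4*, *Angptl4*, *Fasn* and *Scd1* reach similar levels under CORT in both genotypes, *Hspa1a* and *Hspa1b* reach 126 and 119 CPM in GR-mKO against 733 CPM in GRfl/fl muscle, and *Fosb* and *Nr4a1* run in opposite directions.

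The largest rise of all was *Kat6a* (ENSMUST00000044331, chromosome 8, 22859535 to 22943259), a histone acetyltransferase, which stood at 2.92 and 39.5 CPM in GR-mKO and at 17.2 and 54.5 CPM in GRfl/fl muscle, a GR-mKO log2 change of 3.55 (3.36 to 4.15). It belongs to a set of large changes in genes with more than 1 coding transcript, of which the entry names 1. *Kat6a* has 2. Many other genes named here share this limit, such as *Cd74* and *Col3a1* with 3 each. Whether such an entry holds that transcript alone or a sum over the gene was not settled. *Qser1* stood at 20 and 113 CPM in GR-mKO and at 106 and 75.4 CPM in GRfl/fl muscle, and *P4ha1*, a collagen prolyl hydroxylase, at 5.05 and 26.3 CPM and at 30.9 and 38.7 CPM. *Fam135a*, *Pign*, *Zfp467* and *Kdm2b* followed with vehicle levels of 0.579 to 2.39 CPM in GR-mKO muscle and 5.18 to 9.27 CPM in GRfl/fl muscle. For these 7 genes the GR-mKO vehicle library was low against the GRfl/fl vehicle library, and, if the entries hold single transcripts, a change of the gene cannot be told apart from a change in which of its transcripts took the reads. *Cxcl13*, a B cell chemokine, rose in both genotypes, from 0.846 to 8.64 CPM in GR-mKO and from 0.959 to 16.8 CPM in GRfl/fl muscle.

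Among the 15 largest falls, the remaining genes were mostly of matrix and connective tissue. *Cilp2* and *Kera* of cartilage and tendon, *Cpxm1* and *Sfrp2* of fibroblasts and *Ctsk*, a collagen-cleaving protease, fell by 2.52 to 2.82 on the log2 scale. Their levels lay between 7.15 and 13.0 CPM under vehicle and below 2 CPM under CORT in GR-mKO muscle, and all 5 fell in GRfl/fl muscle as well. *Aplnr*, the receptor of apelin on endothelial cells, went from 18.6 to 2.07 CPM in GR-mKO and from 16.8 to 2.32 CPM in GRfl/fl muscle. Its ligand *Apln* fell in step, from 4.3 to 0.590 CPM and from 4.37 to 0.617 CPM, and was 1 of 4 muscle-secreted factors of 14 compared that fell, with *Fst*, *Fstl1* and *Igf1*. The apelin pair gave nearly the same values in both genotypes. *Fcrls*, a scavenger receptor of macrophages, went from 9.24 to 0.984 CPM in GR-mKO muscle.

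Hepatocyte markers rose as a group, beside the liver trace given above. Of 26 compared, 19 rose and none fell, with a median of 1.32, and the summed level went from 250 to 706 CPM in GR-mKO and from 92.0 to 160 CPM in GRfl/fl muscle. *Alb*, albumin, stood at 56.4 and 198 CPM in GR-mKO muscle, while the median trace share of the liver libraries would give 60.5 and 311 CPM. *Mup20*, a major urinary protein, stood at 5.26 and 42.0 CPM, where that share gives 7.17 and 46.1 CPM. Both markers lay near or below what the share of liver transcripts gives. With the liver trace subtracted, 3 of the 26 were higher and 2 lower, and the median was 0.00. *Hp*, haptoglobin, stood higher than that share, at 21.1 and 101 CPM against 1.19 and 8.54 CPM, and rose in GRfl/fl muscle as well, from 14.6 to 146 CPM. *Pck1*, at 5.95 and 34.5 CPM against 1.91 and 5.28 CPM, and *Orm1*, at 1.78 and 10.8 CPM against 0.460 and 1.66 CPM, also stood above it. These 3 genes were abundant in gonadal WAT too, where *Hp* stood at 1885 and 7081 CPM. For *Hspa1b* the share gives 0.0371 and 0.197 CPM and for *Pdk4* 0.00173 and 0.0121 CPM, against measured levels above 13 CPM. Of 14 acute-phase and lipocalin genes *Lcn2*, *Orm1*, *Hp* and *Serpina3n* rose, and all 4 rose in GRfl/fl muscle. The erythroid markers moved in the same direction without passing the fold: all 6 compared were above 0, with a median of 0.86 and a summed level of 1333 and 2477 CPM in GR-mKO muscle, and 799 and 774 CPM in GRfl/fl muscle. The globin genes are close copies of each other, so reads could be divided between them.

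**Figure D5:**
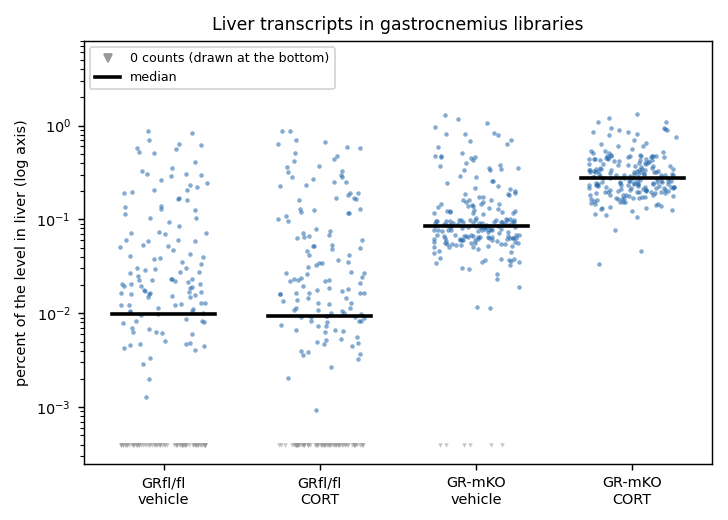
Each point is the level in a gastrocnemius library of 1 of 202 liver genes, as a percent (log axis) of its level in the liver library of the same genotype and treatment, with the median as a black bar and genes at 0 counts as grey triangles at the bottom. The median rises from 0.0849% to 0.279% between the GR-mKO libraries and stands near 0.01% in the GRfl/fl libraries, which were used to choose the genes.

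Other groups held few or no changed genes in GR-mKO muscle. Of 22 clock genes *Dbp* and *Tspan4* fell, *Dbp*, an output of the clock, from 150 to 71.3 CPM against 116 to 3.37 CPM in GRfl/fl muscle, and the median was -0.24. Of 26 genes of amino acid metabolism *Chac1*, a glutathione-degrading enzyme of the stress response, rose from 30.6 to 95.3 CPM. Of 11 proliferation genes *Mki67* and *Top2a* fell, *Mki67* from 3.71 to 0.591 CPM, and the same genes fell in GRfl/fl muscle. Of 38 proteasome subunits the immune subunit *Psmb9* fell, and of 14 antioxidant genes *Gsta3*, a gene abundant in liver, rose. No gene passed the fold among 20 of endoplasmic reticulum stress, 17 of cholesterol synthesis, 7 metallothionein and zinc transport genes, 80 cytosolic ribosomal proteins, 82 nuclear and 13 mitochondrial genes of the respiratory chain, whose medians lay between -0.14 and 0.15.

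Set beside GRfl/fl muscle as a whole, the GR-mKO response was shared in part. Of the 205 genes higher in GR-mKO muscle, 65 were higher in GRfl/fl muscle too, which is 31.7% of the GR-mKO set and 14.7% of the GRfl/fl set. Of the 680 lower genes 178 were shared, 26.2% and 27.9% of the respective sets. The genes lower in GR-mKO muscle had a median log2 change of -0.56 in GRfl/fl muscle, and 79.6% of them were below 0 there, against 57.9% of all compared genes. The genes higher in GR-mKO muscle had a median of 0.39 in GRfl/fl muscle, with 68.3% above 0, against 42.1% of all. Opposite calls were 13 among the higher and 19 among the lower genes. Across the 13543 genes the changes of the 2 genotypes had a Spearman rho of 0.23, a description over genes that share libraries and are not independent. A single library in each group allows no test of whether the response differed between genotypes.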

How the data were processed

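RNA from 3 mice per group was pooled by the authors, sequenced, and quantified by Salmon 1.2.1 against GENCODE M20 protein-coding transcripts (GRCm38). The deposited values are expected counts (estimated counts) that the authors imported with tximport on its length-scaled scale, without scaling between libraries. Each symbol carries 1 transcript identifier, so an entry was read as 1 transcript representing its gene. The paper names the gene summary function of tximport, and says that duplicated gene names were reduced to the entry of largest total counts. Whether the deposited values were first summed over genes was not settled.

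Here CPM were values divided by the library total, and log2 changes were computed with 0.5 CPM added to both sides, using numpy 2.4.6, pandas 2.3.3 and scipy 1.17.1 under Python 3.11.15. Genes above 0 in all 4 gastrocnemius libraries were compared. The study called genes with NOISeq, which simulates its noise from single libraries. A 2-fold limit was used instead, and no test was made. Scripts were tested on simulated data. Ratios carry 95% exact (Clopper-Pearson) binomial intervals on rounded counts.

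Named were *Nr3c1*, *Nr3c2*, *Fkbp5*, *Foxo3*, *Fbxo32* and *Trim63*, the 15 largest rises and 15 largest falls among genes at 5 CPM or more in the higher library, the 10 largest rises among genes at least 10 times higher in liver, and in each of 39 gene lists the members past the limit and up to 4 abundant others. Further members were named after their values were seen, and are given by values. The genes and lists were chosen with earlier results of these data known. The liver trace used genes at 100 CPM or more in all 4 liver libraries and under 1% of that level in both GRfl/fl gastrocnemius libraries. Gene positions came from GENCODE M21 and upstream sequences from RefSeq (GRCm38.p6). Alternatives covered scaling (TMM, median-of-ratios, total without the 10 most abundant genes), pseudocounts of 0.1 and 1 CPM, filters on low values, and genes or traces of liver and WAT.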

Additional observations from a re-analysis of the deposited data

Results flagged for a closer look

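In 6 of the named genes the change with CORT passed the 2-fold limit in opposite directions in GR-mKO and GRfl/fl gastrocnemius. With 1 library per group the difference was not tested. On the log2 scale *Zfp467* changed by 2.23 in GR-mKO and -1.36 in GRfl/fl muscle, *Kdm2b* by 2.14 and -2.02, *Taok3* by -2.55 and 1.25, *Tyrobp* by -3.01 and 1.31, *Chac1* by 1.62 and -1.46, and *Fosb* by 1.41 and -2.77. *Zfp467*, *Kdm2b* and *Taok3* have 9, 8 and 7 coding transcripts in GENCODE M21, of which the entry names 1. *Fosb* belongs to the immediate-early genes, whose medians were 0.65 in GR-mKO and -0.55 in GRfl/fl muscle.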

How the results depend on the processing

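No paired analysis was possible because each group has 1 library, and for the same reason no library could be left out. A pseudocount of 0.1 CPM raised the counts from 205 to 326 higher and from 680 to 1119 lower, and dropping the filter gave 397 higher genes. Other alternatives kept both counts within 1.5 times. Subtracting the liver trace reversed *Apoh* (-0.41), *Cyp3a11* (-0.08), *Gc* (-0.44) and *Serpina1a* (-1.50), removed the 2-fold call of 15 liver genes, *Apoh*, *Cyp3a11* and *Gc* among them, and changed the hepatocyte median from 1.32 to 0.00. Of 147 named calls, TMM factors kept 135, median-of-ratios factors 137 and a pseudocount of 1 CPM 140. *C1qc*, *Cd34*, *Dbp*, *Fbn1*, *Fbxo21*, *Fcgr1*, *Fst*, *H2-T23*, *Igf1* and *Mlxipl* were lost under both scalings, and *Myh7* and *Sparc* under TMM alone. Without genes 10 times higher in WAT the adipocyte list kept 1 gene and the fatty acid synthesis list 6, so changes in myofibers and in fat cannot be told apart there. Depth limits genes near the floor of 3 counts. Of 8730 genes not compared, 587 reached 1 CPM in a GR-mKO library, and a listed 0 can be a failed assignment of reads.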
